A study of Mus musculus with 8 samples.

Results

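The enzymes that build and turn over phospholipids and sphingolipids were described in mouse liver, as 33 genes chosen by name with earlier results of these data known. They were 19 of phospholipid synthesis and remodelling and 14 of sphingolipid metabolism. Probes were taken by gene symbol, current or older, so that Lass2, Lass4, Lass5 and Lass6 on the array were read as the ceramide synthases Cers2, Cers4, Cers5 and Cers6, Aytl2 as Lpcat1, Tmem23 as Sgms1, 4930555L11Rik as a probe of Etnk1 and 9030221M09Rik as probes of Pisd. All 33 genes had a probe, among the 28902 gene names on the array. Of them 27 (17 phospholipid and 10 sphingolipid genes) were detected well enough to be tested, out of 11687 genes tested in all. Liver RNA of 8 male C57BL/6J mice was hybridised to Illumina bead arrays, which report the brightness of each probe in a single colour, with 1 array per mouse. All mice were wild type as far as the labels say. From 6 weeks of age they ate a diet with 60% of its calories from fat, and injections began after 14 weeks of it. A group of 4 mice received a scrambled control antisense oligonucleotide (ASO, a short synthetic nucleic acid that pairs with a target RNA and lowers it) and 4 received an ASO against Mogat1, both at 25 mg/kg into the peritoneum 2 times a week for 3 weeks. Age is listed as 25 weeks for every mouse. The ASO was given to the whole animal and the RNA came from whole liver, so no value belongs to 1 cell type.

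As background, phosphatidylcholine and phosphatidylethanolamine make up most of the liver's membranes and of the surface of secreted lipoproteins. They are built by joining an activated head group (CDP-choline or CDP-ethanolamine) to diacylglycerol, and the liver also makes phosphatidylcholine by methylating phosphatidylethanolamine. Monoacylglycerol acyltransferase 1, the product of Mogat1, makes diacylglycerol, which is therefore a common substrate of triglyceride and phospholipid synthesis. Sphingolipids start from serine and palmitoyl-CoA, pass through ceramide, and leave it as sphingomyelin, glucosylceramide or sphingosine 1-phosphate.

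The median signal per array was 84.3 to 112, with 15788 to 16944 of 45281 probes detected at a detection p under 0.05. The probe for Mogat1 itself was undetected on all 8 arrays, so the lowering of the targeted RNA could not be checked here. Mogat1 ASO replicate 1 stood apart: on the first principal component, which held 43.8% of the variance, it lay at 8.36 between the other Mogat1 ASO arrays (23.6 to 29.2) and the controls (-25.8 to -16.7), and it was also the farthest array on the second. Values without this array are given for the members it moved most. Of 10 hepatocyte markers 6 were tested and 0 passed the adjusted threshold, but 5 of the 6 had a lower mean after the Mogat1 ASO, with a median log2 difference of -0.20. The groups did not overlap for Serpina1a (1.49-fold lower, limma adjusted p = 0.0647), and Hnf4a differed by -0.29 (adjusted p = 0.0942). The summed level of the hepatocyte markers overlapped between the groups, and the probes for Alb, Tat and Fgb were undetected on every array. Of 15 macrophage markers 13 were tested, with 4 higher and 1 lower in the Mogat1 ASO group, and their summed level did not overlap between the groups (11935 to 13694 on control arrays, 15182 to 20924 on Mogat1 ASO arrays). A sum is led by its brightest probes. Ms4a7, Lgals3, Fcer1g and Lyz2 rose, Cd163 fell (difference -1.01, limma adjusted p = 0.0077), and Timd4, Clec4f, Csf1r and Adgre1 had lower means (-0.45, -0.10, -0.045 and -0.025) without passing. The probes for Cd5l and Itgam were undetected. All 10 endothelial markers were tested, with 6 means higher and 4 lower. Lyve1 was 2.43-fold higher (limma adjusted p = 0.0012) and Stab2 1.48-fold lower (adjusted p = 0.0043). Stellate cell markers had 6 tested, 5 with a lower mean (median -0.26), and Reln passed, lower (adjusted p = 0.0295). No lymphocyte, neutrophil, cholangiocyte, adipocyte or erythroid marker passed. The part of the transcripts of any of these cell types in the results that follow was not tested.

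The promoters of the 5 members whose level passed the test are shown because these are the genes the account turns on. Each is the 250 bases before the annotated start, 5′ to 3′ on the gene's strand, from RefSeq with assembly GRCm38.p6, at the most upstream start in that table. Capitals mark every match, on either strand, to the CCAAT box (CCAAT), the GC box (GGGCGG), the E-box (CACGTG) or the sterol element (TCACNCCAC). Crls1 (chr2:132846416-132846665, plus strand), Pcyt1a (chr16:32430671-32430920, plus strand), Sphk2 (chr7:45718003-45718252, minus strand) and Lpcat3 (chr6:124662854-124663103, plus strand) were lower after the Mogat1 ASO, and Pisd (chr5:32785627-32785876, minus strand) was higher.
Crls1: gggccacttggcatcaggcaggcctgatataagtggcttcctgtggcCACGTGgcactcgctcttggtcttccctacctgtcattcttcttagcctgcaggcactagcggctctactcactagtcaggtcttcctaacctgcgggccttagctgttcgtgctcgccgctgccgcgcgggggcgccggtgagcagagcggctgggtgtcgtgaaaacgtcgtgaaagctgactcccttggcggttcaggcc
Pcyt1a: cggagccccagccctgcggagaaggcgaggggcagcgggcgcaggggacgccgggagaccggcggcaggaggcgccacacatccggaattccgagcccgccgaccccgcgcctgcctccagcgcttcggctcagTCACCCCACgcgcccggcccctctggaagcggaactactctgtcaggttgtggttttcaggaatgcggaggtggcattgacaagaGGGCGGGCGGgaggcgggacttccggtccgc
Sphk2: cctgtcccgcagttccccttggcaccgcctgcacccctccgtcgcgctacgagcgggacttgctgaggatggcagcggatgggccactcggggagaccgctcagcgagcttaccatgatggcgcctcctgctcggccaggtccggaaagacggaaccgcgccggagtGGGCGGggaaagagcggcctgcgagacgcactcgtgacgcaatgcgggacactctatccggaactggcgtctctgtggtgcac
Lpcat3: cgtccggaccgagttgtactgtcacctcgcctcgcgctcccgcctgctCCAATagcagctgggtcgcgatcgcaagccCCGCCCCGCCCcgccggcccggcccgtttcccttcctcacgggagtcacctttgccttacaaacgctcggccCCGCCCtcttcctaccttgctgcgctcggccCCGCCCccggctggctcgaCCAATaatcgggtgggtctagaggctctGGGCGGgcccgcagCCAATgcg
Pisd: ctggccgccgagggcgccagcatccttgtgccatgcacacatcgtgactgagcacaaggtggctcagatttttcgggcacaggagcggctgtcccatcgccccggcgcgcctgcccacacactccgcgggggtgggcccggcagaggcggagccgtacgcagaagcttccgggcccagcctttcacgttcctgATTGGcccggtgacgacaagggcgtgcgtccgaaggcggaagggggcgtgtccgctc
No motif was common to all 4 lowered genes in these windows. Crls1 held 1 E-box and Sphk2 held 1 GC box. Pcyt1a held 1 sterol element, whose first base lay 116 bases before the start, and 2 overlapping GC boxes. Lpcat3 held 3 CCAAT boxes and 5 GC boxes, of which a pair overlapped, and Pisd held 1 CCAAT box. Of 32851 mouse promoter windows of the same length, 33.8% held a CCAAT box, 32.7% a GC box, 6.02% an E-box and 1.05% the sterol element. Counted per gene over any of its windows, the share was 37.5%, 35.4%, 6.86% and 1.22% of 27025 genes in the table, and 17, 23, 6 and 1 of the 31 members with an entry, Pcyt1a being the 1 with the sterol element. The 27025 genes were not limited to those detected in these livers, and the shares were not tested against each other. A match of letters is a description and says nothing of binding.

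Among the 17 phospholipid genes tested, 3 fell (Crls1, Pcyt1a and Lpcat3) and 1 rose (Pisd) after the Mogat1 ASO, by limma at a Benjamini-Hochberg adjusted p of 0.05 taken over the 16487 probes tested. Among the 10 sphingolipid genes tested, Sphk2 fell and 0 rose. Over all 11687 genes tested 13.3% passed, 7.14% higher and 6.13% lower, so the 4 of 17 phospholipid genes stood at 23.5% and the 1 of 10 sphingolipid genes was near that background. The gap between 23.5% and 13.3% was not tested, and the members were chosen with earlier results of these data known. The median difference in log2 level (Mogat1 ASO minus control) was -0.01 over the phospholipid genes and 0.03 over the sphingolipid genes, against -0.0035 over all genes tested. The median size of the difference was 0.21, 0.13 and 0.17 in the same order. Signs were mixed, with 13 of the 27 members higher and 14 lower on average. In whole liver, fewer cells of a type and less RNA per cell cannot be told apart.

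**Figure D1:**
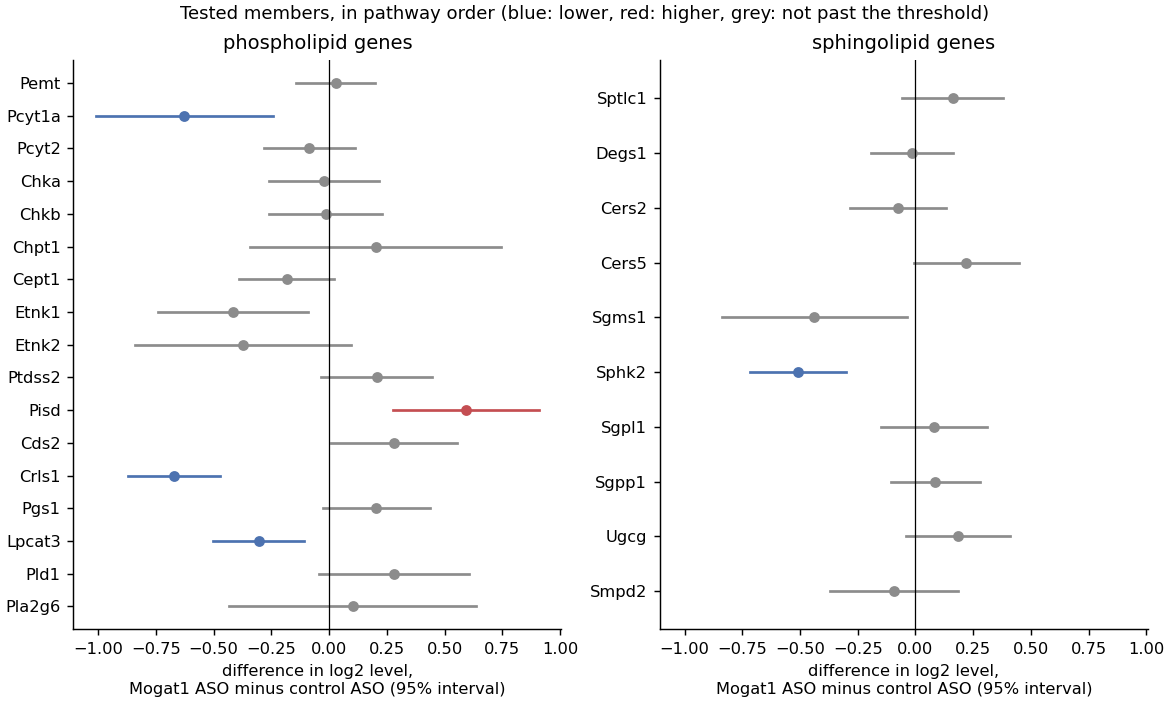
Difference in normalised log2 level (Mogat1 ASO minus control ASO, x axis) for each of the 27 members tested, phospholipid and sphingolipid genes apart, with 95% confidence intervals of the limma fit that are not adjusted for multiple tests. The 5 members past the adjusted threshold run from -0.67 (Crls1) to 0.59 (Pisd).

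The clearest change among the phospholipid genes was in the branch that leads to cardiolipin, the phospholipid of the mitochondrial inner membrane. Crls1, the cardiolipin synthase that performs its last step, had normalised log2 levels of 9.98, 10.13, 10.02 and 9.88 on control arrays 1 to 4 and of 9.42, 9.29, 9.20 and 9.42 on Mogat1 ASO arrays 1 to 4. Every control lay above every Mogat1 ASO array, and the gap between the groups was wider than the spread within either. The means were 10.003 ± 0.10 and 9.33 ± 0.11 (SD, n = 4 each), which is 1.59-fold lower (log2 difference -0.67, SE 0.09, limma adjusted p = 0.0013). The probes of Crls1 did not move alike. Its 3 dimmer probes differed by -0.30, -0.17 and 0.02 (SE 0.16, 0.22 and 0.12; limma adjusted p = 0.252, 0.665 and 0.921), and the mean of its 4 probes was 1.21-fold lower with an adjusted p of 0.103. The dimmer probes had control means of 5.81, 6.23 and 6.95, far under the brightest, and the first was above background on 3 Mogat1 ASO arrays. The call of Crls1 therefore rests on its brightest probe. Whether the dimmer probes differ from it through their low signal or their sequence was not tested.

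The other members listed with Crls1 did not pass. Cds2, which makes CDP-diacylglycerol, differed by 0.28 (SE 0.12, 95% interval 0.01 to 0.56, limma adjusted p = 0.168). Pgs1, which turns CDP-diacylglycerol into phosphatidylglycerol phosphate, differed by 0.21 (SE 0.10, interval -0.02 to 0.44, adjusted p = 0.231). Whether the CDP-diacylglycerol made by Cds2 reaches Crls1 was not tested. Cds2 passed when the arrays were weighted by their quality (difference 0.35, adjusted p = 0.0467). The values of Cds2 and Pgs1 thus had the opposite sign to that of Crls1.

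In the CDP-choline route, the cytidylyl transferase gene passed the threshold, lower after the Mogat1 ASO, and the kinase genes did not pass. Pcyt1a encodes the alpha form of CTP:phosphocholine cytidylyl transferase, the rate-limiting enzyme of that route. Its log2 levels were 8.55, 8.99, 9.08 and 8.61 on control arrays 1 to 4 and 8.53, 8.29, 8.16 and 7.74 on Mogat1 ASO arrays 1 to 4. The groups did not overlap, but Mogat1 ASO replicate 1 lay only just under the lowest control. The means were 8.81 ± 0.27 and 8.18 ± 0.33 (SD, n = 4 each), 1.54-fold lower (difference -0.63, SE 0.17, limma adjusted p = 0.039), from 1 probe. Without Mogat1 ASO replicate 1 the gene was 1.67-fold lower with an adjusted p of 0.0122. The call was lost without control ASO replicate 2 (adjusted p = 0.110) or 3 (0.115), and without Mogat1 ASO replicate 2 (0.0588), 3 (0.0939) or 4 (0.0952).

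The choline kinases Chka and Chkb, which act just before Pcyt1a, differed by -0.02 and -0.01, with 95% intervals of -0.26 to 0.22 and -0.26 to 0.23 (limma adjusted p = 0.927 and 0.952). Control arrays held Chka within a narrow band (10.45 ± 0.03, SD, n = 4), while the Mogat1 ASO arrays were more spread (10.43 ± 0.22), with replicate 1 highest at 10.75. A dimmer probe of Chkb differed by -0.29 (SE 0.12, interval -0.56 to -0.02, adjusted p = 0.155). Chpt1, which joins CDP-choline to diacylglycerol, ranged from 10.55 to 11.15 on control arrays and lay at 10.25, 11.56, 11.07 and 11.47 on Mogat1 ASO arrays 1 to 4. Replicate 1 was the lowest of the 8 arrays, and replicates 2 and 4 were the highest. The difference was 0.20 (SE 0.25, adjusted p = 0.648), and 0.48 without Mogat1 ASO replicate 1 (adjusted p = 0.0514). Its other probes differed by 0.26 and 0.33, with replicate 1 again the lowest of the Mogat1 ASO arrays. Cept1, which uses either CDP-choline or CDP-ethanolamine, differed by -0.18 (SE 0.09, interval -0.39 to 0.02, adjusted p = 0.234).

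The methylation route and the ethanolamine route gave no member past the threshold. Pemt, the methyltransferase that turns phosphatidylethanolamine into phosphatidylcholine in hepatocytes, was at 12.91 ± 0.12 on control arrays and 12.94 ± 0.04 on Mogat1 ASO arrays (SD, n = 4 each). The difference of 0.03 had a 95% interval of -0.14 to 0.20 (limma adjusted p = 0.845). Pcyt2, the cytidylyl transferase for ethanolamine, differed by -0.09 (SE 0.09, interval -0.28 to 0.11, limma adjusted p = 0.586), and its other probes by -0.09 and -0.06. The ethanolamine kinases were lower on average without passing. Etnk1 differed by -0.42 (SE 0.15, interval -0.74 to -0.09, adjusted p = 0.0903), with 4 control and 2 Mogat1 ASO arrays above background, and by -0.16 with no background correction. Etnk2, the kinase abundant in liver, differed by -0.37 (SE 0.21, interval -0.84 to 0.09, adjusted p = 0.284), and from -0.52 (without Mogat1 ASO replicate 3) to -0.20 (without control ASO replicate 3) when single arrays were left out.

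Phosphatidylserine is made by exchanging head groups and is turned into phosphatidylethanolamine in mitochondria by Pisd, phosphatidylserine decarboxylase. Pisd lay at 5.96, 5.59, 5.70 and 5.47 on control arrays 1 to 4 and at 6.08, 6.33, 6.49 and 6.19 on Mogat1 ASO arrays 1 to 4. The groups did not overlap, and control replicate 1 came within reach of the lowest Mogat1 ASO array. The means were 5.68 ± 0.21 and 6.27 ± 0.18 (SD, n = 4 each), 1.51-fold higher (difference 0.59, SE 0.14, limma adjusted p = 0.0215). These levels are close to background, and the fold shrank to 1.20 with no background correction and to 1.30 with an offset of 50. Its other probes differed by 0.26 and 0.13 (SE 0.24 and 0.18, adjusted p = 0.538 and 0.692), and the mean of the probes by 0.33 (adjusted p = 0.203). The call was also lost without control ASO replicate 2 (adjusted p = 0.0667), 3 (0.0525) or 4 (0.0596), and without Mogat1 ASO replicate 2 (0.0513) or 3 (0.0703). Ptdss2, which makes phosphatidylserine from phosphatidylethanolamine, differed by 0.21 (SE 0.11, interval -0.04 to 0.45, adjusted p = 0.253). Ptdss1, which makes it from phosphatidylcholine, was undetected on all arrays with both of its 2 probes.

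Remodelling enzymes exchange the fatty acids of finished phospholipids. Lpcat3, which places polyunsaturated chains into lysophospholipids, lay at 12.04, 12.13, 12.26 and 12.27 on control arrays 1 to 4 and at 11.86, 11.92, 12.01 and 11.70 on Mogat1 ASO arrays 1 to 4. The groups were separate by a narrow margin, between control replicate 1 and Mogat1 ASO replicate 3. The means were 12.18 ± 0.11 and 11.87 ± 0.13 (SD, n = 4 each), 1.24-fold lower (difference -0.30, SE 0.09, limma adjusted p = 0.047), and its second probe differed by -0.29 (SE 0.20, adjusted p = 0.374). The call was lost in 11 of 20 alternatives. Leaving out any array but control ASO replicate 1 was enough: adjusted p was 0.0915, 0.129 and 0.115 without control ASO replicates 2, 3 and 4, and 0.0524, 0.0747, 0.0555 and 0.127 without Mogat1 ASO replicates 1 to 4. Lpcat1, best known from lung surfactant, was undetected on all arrays. The phospholipases Pld1 and Pla2g6 differed by 0.28 (SE 0.15, interval -0.04 to 0.60, adjusted p = 0.245) and by 0.10 (SE 0.24, interval -0.43 to 0.64, adjusted p = 0.826). For Pla2g6 the sign turned in 2 of 20 alternatives. Among them was the fit without control ASO replicate 1, which at 6.80 stood apart from the other controls (difference -0.15).

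**Figure D2:**
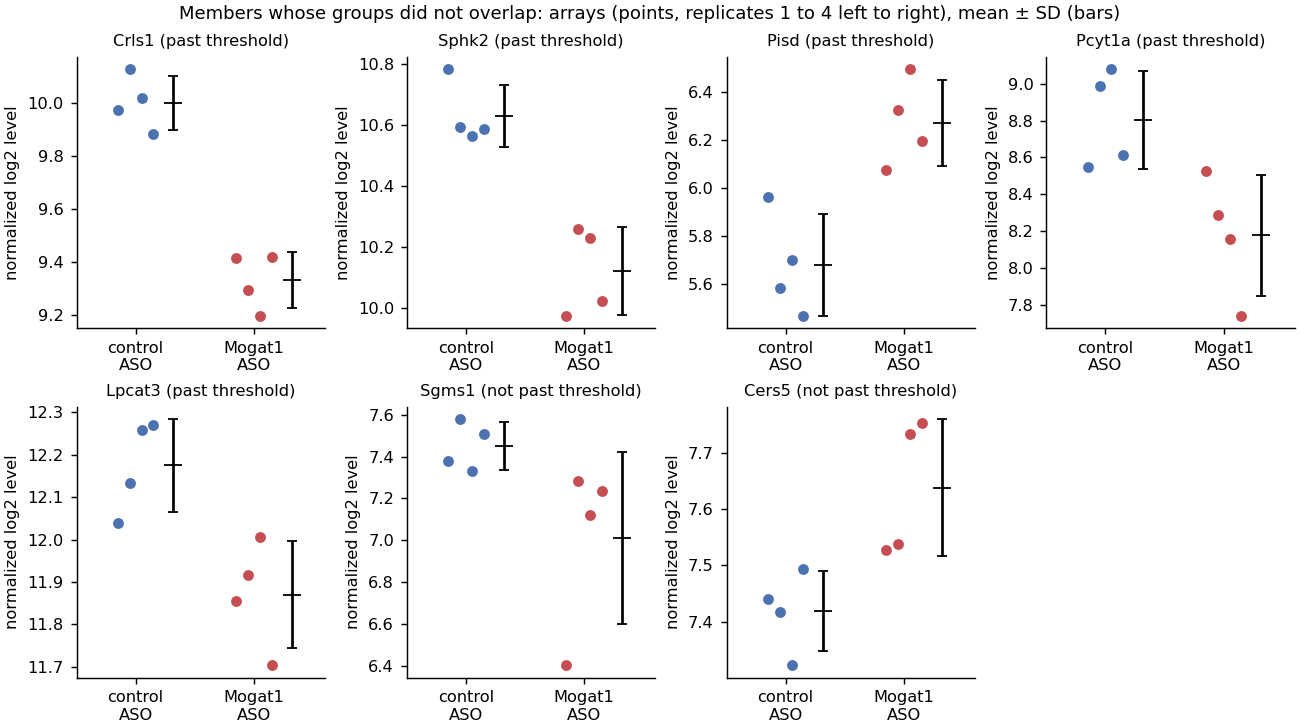
Normalised log2 level (y axis) on each array for the 7 members whose control ASO and Mogat1 ASO groups did not overlap, with points for single mice and bars for the mean ± SD (n = 4 per group). Crls1 and Sphk2 have the widest gaps for their spread, while Sgms1 and Cers5 did not pass the adjusted threshold.

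On the sphingolipid side, sphingosine kinase 2 was the 1 gene that passed. Sphk2 phosphorylates sphingosine to sphingosine 1-phosphate, in the nucleus and mitochondria among other places. Its log2 levels were 10.78, 10.59, 10.56 and 10.58 on control arrays 1 to 4 and 9.98, 10.26, 10.23 and 10.02 on Mogat1 ASO arrays 1 to 4. All controls lay above all Mogat1 ASO arrays, with control replicate 1 highest. The means were 10.63 ± 0.10 and 10.12 ± 0.14 (SD, n = 4 each), 1.42-fold lower (difference -0.51, SE 0.10, limma adjusted p = 0.00653). A second probe agreed in direction and passed too: it was 1.30-fold lower (difference -0.38, SE 0.09, adjusted p = 0.0222), from 10.18 to 10.57 on control arrays to between 9.94 and 10.04 on Mogat1 ASO arrays. Its remaining probe was undetected. The call of Sphk2 was kept in 20 of 20 alternatives, with folds from 1.36 to about 1.5.

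The other enzymes around sphingosine 1-phosphate did not pass. Sgpl1, the lyase that breaks it down for good, differed by 0.08 (SE 0.10, interval -0.15 to 0.31, limma adjusted p = 0.674), and Sgpp1, the phosphatase that returns it to sphingosine, by 0.09 (SE 0.09, interval -0.11 to 0.28, adjusted p = 0.572). Sphk1, the other kinase, had 3 probes, of which the best was above background on 1 control and 2 Mogat1 ASO arrays, so it was not tested.

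The steps that make ceramide gave small differences. Sptlc1, a subunit of serine palmitoyltransferase, the first and rate-limiting enzyme, differed by 0.16 (SE 0.10, interval -0.06 to 0.38, limma adjusted p = 0.327), and its partner Sptlc2 was above background on 0 control and 1 Mogat1 ASO arrays. Degs1, which desaturates dihydroceramide, differed by -0.01 (SE 0.08, interval -0.19 to 0.16, adjusted p = 0.930). The ceramide synthases are told apart by the length of the fatty acid they attach. Cers2, the synthase for very long chains that dominates in liver, differed by -0.08 (SE 0.10, interval -0.29 to 0.13, adjusted p = 0.659), with -0.07 and 0.02 for its other probes. Cers5, which prefers palmitoyl-CoA, lay at 7.44, 7.42, 7.32 and 7.49 on control arrays 1 to 4 and at 7.53, 7.54, 7.73 and 7.75 on Mogat1 ASO arrays 1 to 4. Its groups did not overlap, but the gap was small and the difference of 0.22 (SE 0.10) did not pass (adjusted p = 0.193). None of the probes for Cers4 and Cers6 was detected well enough to be tested: the 3 of Cers6 were undetected on all arrays and the better of the 2 of Cers4 was detected on 1 array of each group.

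Ceramide then leaves for the complex sphingolipids. Sgms1, the sphingomyelin synthase of the Golgi, lay at 7.38, 7.58, 7.33 and 7.51 on control arrays 1 to 4 and at 6.40, 7.28, 7.12 and 7.24 on Mogat1 ASO arrays 1 to 4. The groups did not overlap, and Mogat1 ASO replicate 1 lay far under the other 7 arrays. The difference was -0.44 (SE 0.18, limma adjusted p = 0.142), and -0.23 without that array (adjusted p = 0.172). Ugcg, which makes glucosylceramide, differed by 0.18 (SE 0.10, interval -0.04 to 0.41, adjusted p = 0.277) and by 0.27 on its other probe. Smpd2, a neutral sphingomyelinase that returns sphingomyelin to ceramide, differed by -0.09 (SE 0.13, interval -0.37 to 0.18, adjusted p = 0.687). Counting Sgms1 and Cers5, the groups did not overlap for 7 of the 27 members (4 of 17 phospholipid and 3 of 10 sphingolipid genes), against 19.1% of all genes tested.

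**Figure D3:**
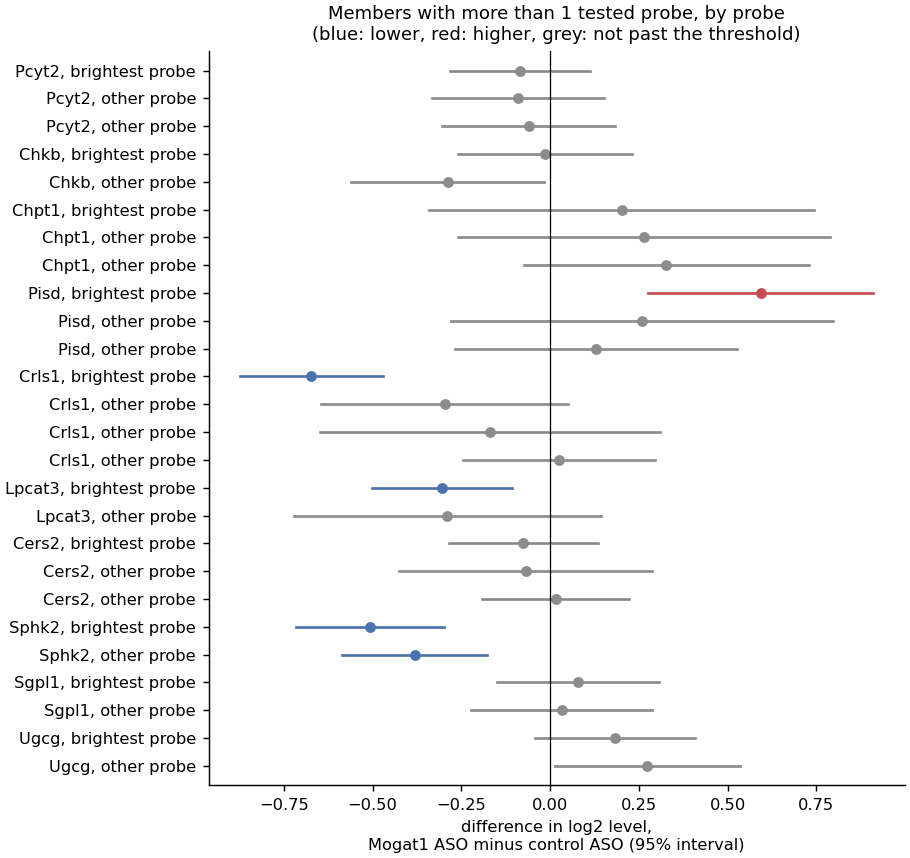
Difference in normalised log2 level (Mogat1 ASO minus control ASO, x axis) with 95% intervals for every tested probe of the members that have more than 1. The probes of Sphk2 lie together below 0, while the brightest probe of Crls1 (-0.67) lies below its other 3, with intervals that partly overlap.

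Single arrays shaped many of the members' values. Mogat1 ASO replicate 1 was the highest or lowest of its group for 21 of the 27 members (lowest for 13, highest for 8), and control ASO replicate 1 for 19. Over all genes tested the same arrays were extreme for 63.6% and 61.5%, so frequent extremes on these arrays were not limited to the members. The median SD within a group was 0.16 in controls and 0.17 in Mogat1 ASO mice for the phospholipid genes, and 0.11 and 0.14 for the sphingolipid genes. Leaving out Mogat1 ASO replicate 1 moved several members that were not past the threshold, beside Chpt1 and Sgms1: Chka to -0.13, Chkb to 0.063, Etnk2 to -0.21, Pld1 to 0.17, Pla2g6 to 0.22 and Pcyt2 to -0.035. Without it Lpcat3 missed the threshold and 3 phospholipid genes and 1 sphingolipid gene passed.

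**Figure D4:**
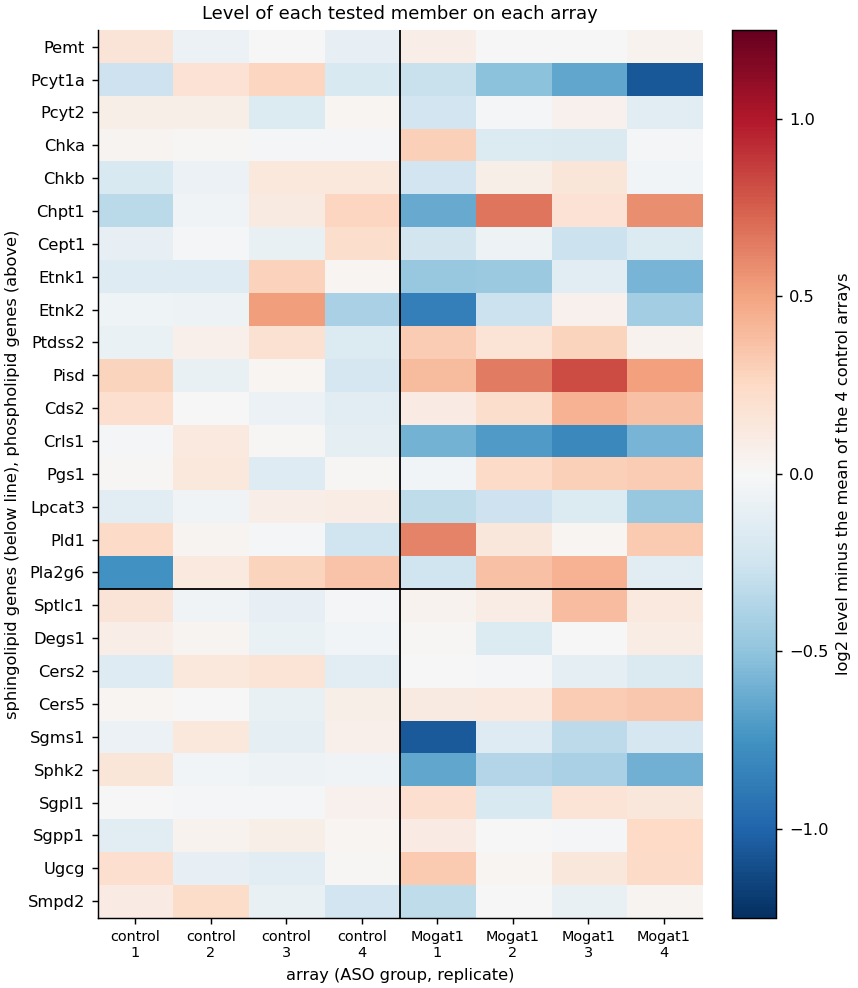
Normalised log2 level minus the mean of the 4 control arrays (colour) for the 27 members tested (rows) on the 8 arrays (columns). The column of Mogat1 ASO replicate 1 differs from the other Mogat1 ASO columns in Chpt1, Chka and Sgms1, whereas Crls1 and Sphk2 are lower in all 4.

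Other genes of phospholipid metabolism were taken as a list of 39, of which 29 were tested. Of these 6 rose and 3 fell, a share of 31% against 13.3% of all genes tested, with a median difference of 0.04. The difference between these shares was not tested. The list was chosen with earlier results of these data known, so its share is a description and not evidence about the pathway. Lpgat1, which acylates lysophosphatidylglycerol, had the largest change among those past the threshold. It lay at 8.68, 9.52, 9.19 and 9.46 on control arrays 1 to 4 and at 9.98, 10.82, 10.62 and 10.73 on Mogat1 ASO arrays 1 to 4. Its groups did not overlap although both their first replicates were low, and it was 2.50-fold higher (difference 1.32, SE 0.21, limma adjusted p = 0.00325). These values come from 1 probe under the older name AW112037. The probe named Lpgat1 was above background on 1 control and 1 Mogat1 ASO array (means 5.13 and 5.02), so it was not tested. The choline transporters rose as well: Slc44a1 was 1.46-fold higher (SE of the log2 difference 0.10, adjusted p = 0.00519) and Slc44a2 1.35-fold higher (SE 0.12, adjusted p = 0.033). Etnppl, which breaks down phosphoethanolamine, was 1.52-fold higher (SE 0.15, adjusted p = 0.0230). The lysophospholipases Pnpla7 and Pnpla6 were 1.58-fold lower (SE 0.15, adjusted p = 0.0157) and 1.35-fold lower (SE 0.11, adjusted p = 0.0312). Second tested probes of Slc44a1, Etnppl and Pnpla6 differed in the same direction without passing, by 0.51, 0.53 and -0.30 (limma adjusted p = 0.0983, 0.0683 and 0.0935). Lpgat1, Slc44a1 and Pnpla7 kept their calls in 20 of 20 alternatives. Etnppl missed the threshold without control ASO replicate 3 (adjusted p = 0.0572) or 4 (0.0581) or Mogat1 ASO replicate 4 (0.0712). Of these genes Slc44a2 and Pnpla6 passed by the narrowest margins. Slc44a2 missed it without control ASO replicate 2 (0.0997), 3 (0.0802) or 4 (0.0689) or Mogat1 ASO replicate 3 (0.0913) or 4 (0.0952), and with no filter on dim probes (0.0679). Pnpla6 missed it without control ASO replicate 2 (0.0964), 3 (0.0746) or 4 (0.0815) or Mogat1 ASO replicate 2 (0.0771) or 3 (0.0922), and with no such filter (0.0677).

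A list of 49 other sphingolipid genes had 31 tested, with 3 higher and 1 lower and a median difference of 0.03. This share of 12.9% is close to the 13.3% of all genes tested, so the list as a whole did not stand out, and its members past the threshold are given as single genes. Hexa, a subunit of the lysosomal hexosaminidase that trims gangliosides, went from 10.22, 10.13, 10.02 and 10.38 on control arrays 1 to 4 to 10.65, 10.81, 10.89 and 11.04 on Mogat1 ASO arrays 1 to 4. No array of the groups overlapped, and the gene was 1.58-fold higher (log2 difference 0.66, SE 0.11, limma adjusted p = 0.00352). Psap, the precursor of the saposins that help lysosomal enzymes reach their lipids, was 1.32-fold higher (SE 0.09, adjusted p = 0.0136), and Acer2, a ceramidase of the Golgi, 1.34-fold higher (SE 0.09, adjusted p = 0.0142). Macrophages also express Hexa and Psap. The summed macrophage markers were higher on all 4 Mogat1 ASO arrays, although 5 of the 13 tested had a lower mean there, Cd163 among them. Their part in these changes was not tested.

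Cert1 carries ceramide from the endoplasmic reticulum to the Golgi, where Sgms1 uses it, and was the 1 gene of this list that fell. It lay at 7.04, 6.99, 6.93 and 7.01 on control arrays 1 to 4 and at 6.58, 6.67, 6.56 and 6.52 on Mogat1 ASO arrays 1 to 4. Every Mogat1 ASO array lay below every control, 1.33-fold lower in the mean (difference -0.41, SE 0.10, limma adjusted p = 0.0228), and its second probe fell too (difference -0.45, adjusted p = 0.0461). The call was lost without control ASO replicate 2 (adjusted p = 0.0627) or 4 (0.0569) and without Mogat1 ASO replicate 3 (0.0643) or 4 (0.0632), and also with no filter on dim probes (0.0662). Hexa, Psap and Acer2 kept theirs in 20 of 20 alternatives.

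Methylation of phosphatidylethanolamine by Pemt uses S-adenosylmethionine, so 19 genes of methyl donor, folate and choline breakdown pathways were described beside it. Of the 18 tested, 0 rose and 5 fell, 16 had a lower mean after the Mogat1 ASO and the median difference was -0.26. Over all genes tested 6.13% fell, and 5904 of 11687 had a lower mean. These counts were not tested against each other, and the list was chosen with earlier results of these data known. Of the 6 hepatocyte markers tested 5 also had a lower mean (median -0.20), and their part in the methyl donor values was not tested. Cbs, which diverts homocysteine to cysteine, had the largest change of the 5, from 12.41, 12.12, 12.03 and 12.11 on control arrays 1 to 4 to 11.98, 11.18, 11.43 and 11.14 on Mogat1 ASO arrays 1 to 4. Its groups were separate, with Mogat1 ASO replicate 1 nearest the controls. It was 1.67-fold lower (difference -0.74, SE 0.17, limma adjusted p = 0.016), and its second probe fell as well (difference -0.77, adjusted p = 0.00659). Mthfd1, an enzyme of the folate cycle, was 1.37-fold lower (SE 0.09, adjusted p = 0.00818), and 1.20-fold lower on its other tested probe (adjusted p = 0.140). Shmt1, which loads folate with a carbon from serine, was 1.43-fold lower (SE 0.14, adjusted p = 0.0328), but 1.14-fold lower on its other probe (adjusted p = 0.342). Gamt, which uses S-adenosylmethionine to make creatine, was 1.44-fold lower (SE 0.15, adjusted p = 0.0405), with groups that overlapped. Chdh, which oxidises choline, was 1.32-fold lower (SE 0.10, adjusted p = 0.0243), with a difference of -0.36 on its other tested probe (adjusted p = 0.105). Mthfd1 kept its call in 20 of 20 alternatives. Cbs lost its call without Mogat1 ASO replicate 4 (adjusted p = 0.0505). The calls of Shmt1, Gamt and Chdh each depended on several single mice. Shmt1 lost its call without control ASO replicate 2 (0.0894) or 3 (0.0996) or Mogat1 ASO replicate 3 (0.0994) or 4 (0.0765), with the mean of its probes (0.0502) and with no variance trend (0.0514). Gamt lost its call without control ASO replicate 2 (0.116), 3 (0.106) or 4 (0.0896) or Mogat1 ASO replicate 3 (0.115) or 4 (0.114), and with no variance trend (0.0607). Chdh lost its call without control ASO replicate 2 (0.0732), 3 (0.0750) or 4 (0.0666) or Mogat1 ASO replicate 2 (0.0633), 3 (0.0710) or 4 (0.0591), and with no filter on dim probes (0.0672).

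**Figure D5:**
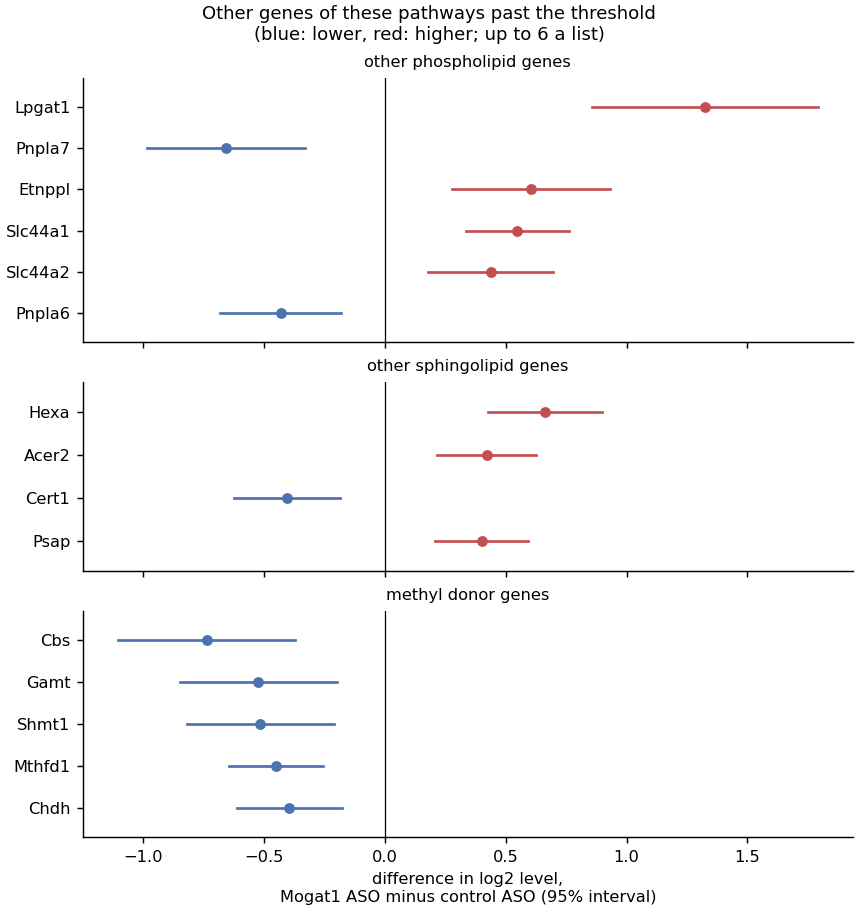
Difference in normalised log2 level (Mogat1 ASO minus control ASO, x axis) with unadjusted 95% intervals for the genes past the threshold, up to 6 a list, among other phospholipid, other sphingolipid and methyl donor genes. Lpgat1 is 2.50-fold higher after the Mogat1 ASO, and all 5 methyl donor genes shown are lower.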

How the data were processed

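Liver RNA of 8 mice, 4 per group and 1 array each, was measured. The table of non-normalized values deposited by the authors gives, for 45281 probes and every array, an intensity and a p-value of detection, per the file headers. The authors' deposited series table holds a processed intensity whose array medians were 5.75 to 5.78, with 38.0% to 38.1% of values below 0 and the rank order of the raw signals. Values below 0 mark a linear scale after background subtraction, and this table served only as an alternative. The authors' software for it was not given in the sources used here. Biotin was the label and T7 linear amplification preceded it, per the labels.

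Signals were background-corrected by normexp through the detection p-values, quantile normalised and log2 transformed with offset 16 (neqc, limma 3.58.1, R 4.3.3; data.table, version 1.17.8). The 16487 probes with a detection p under 0.05 on at least 4 of 8 arrays entered a two-sided test (lmFit, then eBayes with a variance trend), adjusted by Benjamini-Hochberg over all probes tested, with a threshold of 0.05. The tests were checked on simulated data. The brightest tested probe stood for a gene, and folds are 2 to the power of the log2 difference. Every SE is that of the log2 difference, also where it stands beside a fold. The number of arrays limits the precision. Symbols were updated through RefSeq (GRCm38.p6) in Python 3.11.15: 27760 probes carried a symbol still in use and 7994 an older one, 187 fitted several genes and 9340 none. Figures used matplotlib 3.10.9.

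All 33 members are described, array by array where they passed or where the groups did not overlap. Of the other lists, up to 6 genes past the threshold are named by size of change. The members and lists were chosen with earlier results of these data known. Alternatives changed the background correction, offset, normalization, filter, probe summary, variance trend, array weights, replicate block and the arrays included.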

Additional observations from a re-analysis of the deposited data

Results flagged for a closer look

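The Sphk2 level of control ASO replicate 1, at 10.78 on the log2 scale, lay above the other 3 controls, which were close together, the nearest at 10.59. This gap was 0.871 of the group's whole range, above Dixon's 95% critical value for 4 samples. It was the 1 such case among 54 groups of 4 checked, a lower rate than the about 1 in 20 that chance alone gives.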

How the results depend on the processing

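Over all genes 1550 passed, against 2611 with array weights and 887 to 2262 when each array was left out in turn (lowest without Mogat1 ASO replicate 3, highest without Mogat1 ASO replicate 1). The 4 phospholipid calls became 1 when the probes of a gene were averaged (Crls1, Pisd and Lpcat3 lost theirs), and 1 to 4 when each array was left out: 1 without control ASO replicate 2 or 3 or Mogat1 ASO replicate 2 or 3, 2 without control ASO replicate 4 or Mogat1 ASO replicate 4, 3 without Mogat1 ASO replicate 1. The cause was not tested. The 1 sphingolipid call, Sphk2, was kept in all 20 alternatives. With the replicate number as a block (the replicate block), 1490 genes, 3 phospholipid genes and 1 sphingolipid gene passed, with Lpcat3 (adjusted p = 0.0615), Cert1 (0.0546) and Chdh (0.0575) among the calls lost. Same-numbered arrays correlated by 0.199, 0.0786, -0.0307 and 2.84e-05 after removing group means, and numbers 3 and 4 correlated better with another number, so the numbers were not taken to pair the mice. Among members not past the threshold some differences changed sign. Pemt was at -0.063 with median scaling and Chkb at 0.020 with array weights. Leaving out each array in turn gave -0.0036 to 0.084 for Pemt, -0.13 to 0.032 for Chka, -0.078 to 0.063 for Chkb, -0.15 to 0.22 for Pla2g6 and -0.051 to 0.038 for Degs1. Signals near background limit Pisd and Etnk1 (which gave no value when detection on all 8 arrays was required), and 6 members were too dim to test.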
